A study of Mus musculus with 4 samples.

Results

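Conventional dendritic cells (DC) were examined in tumors of 4 mice by single-cell RNA sequencing. The cells were selected on their own transcripts. A member carried a UMI (a unique molecular identifier, which stands for 1 captured transcript) of at least 3 of the 7 genes Cd209a, Mgl2, Plbd1, Wdfy4, Naaa, H2-Oa and Flt3, and at least 1 UMI each of H2-Aa and Cd74. It carried at most 1 of the complement genes C1qa, C1qb and C1qc, at most 1 of the migratory DC genes Ccr7, Ccl22, Fscn1 and Cacnb3, at most 1 UMI of Siglech, and under 5 UMIs of the tumor transgenes. Of 10975 cells that passed the quality filters, 335 were members, 33 of 3319 in mouse 4, 57 of 1455 in mouse 5, 220 of 2732 in mouse 6 and 25 of 3469 in mouse 7.

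Conventional DC take up antigen in tissues, display its peptides on MHC class II and class I molecules and prime T cells after they migrate to a lymph node. They arise from bone marrow precursors under the growth factor receptor Flt3 and fall into a type marked by Xcr1, Clec9a and high Irf8 (cDC1), known for cross-presentation to CD8 T cells, and a type marked by Sirpa, Irf4 and lectins such as Cd209a and Mgl2 (cDC2), known for priming CD4 T cells. In the brain they are few and sit mainly in the meninges and the choroid plexus.

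All 4 animals were hGFAP-cre::TP53Fl/Fl::lsl-MYCN mice, in which Cre under the human GFAP promoter, active in radial glia and their descendants, removes Trp53 and turns on human MYCN with firefly luciferase. There were no control animals without the alleles. Mouse 4 and mouse 5 were killed at P43 (43 days of age) and mouse 6 and mouse 7 at P70 (70 days), so age was compared over 2 against 2 mice. The authors describe the P43 tumors as early and the P70 tumors as further developed. Age and tumor stage therefore cannot be told apart here. The tumors had been digested, depleted of red cells, frozen, thawed and sorted for live cells before loading, and a cell that did not survive these steps was not counted. Values per mouse are given in the order mouse 4, mouse 5, mouse 6, mouse 7, and CPM is counts per 1000000 UMIs of the summed members of that mouse.

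The libraries held 15044263, 13106786, 18698291 and 40621958 UMIs, and the members together 201532, 575617, 1616923 and 74526. Median depth per member was 5875, 10072, 7203 and 2763 UMIs. Mouse 7 thus gave the fewest and shallowest members, and 3 UMIs, the limit that a count of 0 allows, correspond to 40.3 CPM there against 14.9, 5.21 and 1.86 CPM in the other mice. In mouse 7 the median depth of members was 0.264 times that of all kept cells of the library. Cd74 and H2-Aa were among the 10 genes with the highest fold over the other cells there, but both are conditions of the rule. Cd209a, Mgl2, Plbd1, Wdfy4, Naaa, H2-Oa and Flt3 were not among those 10 in mouse 7, while some of them were in each other mouse. The sex labels of both P43 mice did not match the data. Mouse 4 was labelled female and mouse 5 male, but the sum of 4 Y-linked genes (Kdm5d, Uty, Ddx3y and Eif2s3y) in members was 134 CPM for mouse 4 and 0 for mouse 5. Mouse 6, labelled male, had 197 CPM of them, and mouse 7, labelled female, 0. Endothelial cells of the same libraries showed the same split for Ddx3y, with 103, 0, 107 and 0 CPM. Each age held 1 mouse with and 1 without these transcripts. Which P43 library came from which P43 mouse is therefore in doubt, and mouse 4 and mouse 5 are used here as the names of the libraries.

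The rule admitted more than cells with Cd209a. Plbd1, which encodes a phospholipase-like lysosomal protein, was seen in 325 of the 335 members. Wdfy4, required for cross-presentation, was seen in 241, the MHC class II chaperone subunit H2-Oa in 236, Flt3 in 217 and the lipid amidase Naaa in 204. Cd209a, the C-type lectin DC-SIGN homolog on chr8:3743397-3748984 (GRCm38), was seen in only 120 members and Mgl2, a galactose-binding lectin on chr11:70130329-70137550, in 85. The cells are therefore called conventional DC here, without the name of that lectin. The 4 genes that most set the members apart from all other kept cells outside the rule, by the lowest ratio over the mice, were Xcr1, H2-DMb2, Kmo and H2-Ob. These values describe the selection, with no test, since the same transcripts chose the cells.

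Members at the edge of the rule were common. Exactly 3 of the 7 genes were seen in 93 members, 4 genes in 106 and 5 or more in 136, while 155 cells met every other condition with 2 genes and stayed outside. The median depth of the cells just outside was 734, 5833, 4968 and 2281 UMIs, below that of the members in every mouse. No barcode was a member in more than 1 library, although 12 barcodes of kept cells recurred between libraries.

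All 8 general conventional DC markers (Flt3, Zbtb46, Itgax, Dpp4, H2-Aa, Cd74, Batf3 and Id2) had UMIs in every mouse. H2-Aa and Cd74 are conditions of the rule and Flt3 is one of its genes, so their presence is no finding. Zbtb46, a transcription factor that marks the conventional DC lineage, stood at 44.7, 52.1, 31.5 and 13.4 CPM. Its value in mouse 7 lies under the 40.3 CPM that 3 UMIs make there. Dpp4 (CD26), a surface peptidase, stood at 208, 175, 222 and 188 CPM. Transcripts of T and NK cells, neutrophils and B cells were scarce. The 7 T and NK cell markers summed to 0, 5.21, 6.80 and 0 CPM, led by Nkg7, with Cd3d, Cd3g and Gzma at 0. The 6 neutrophil markers summed to 0, 6.95, 31.5 and 0 CPM with Csf3r the most abundant. B cell markers summed to 9.92, 17.4, 12.4 and 0 CPM, led by Ebf1, with Cd79a at 0. Endothelial markers, led by Pecam1, summed to 54.6, 10.4, 58.1 and 26.8 CPM. Mast cell, plasma cell and red cell markers were at 0 in all mice. Mural cell markers, led by Vtn, summed to 19.8, 155, 8.04 and 0 CPM, and oligodendrocyte lineage markers, led by Mbp, to 179, 90.3, 75.5 and 174 CPM, with Sox10 and Olig1 at 0. The transgenes summed to 9.92, 19.1, 15.5 and 93.9 CPM. In mouse 6, 2 members also passed the gate used for B cells.

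Macrophage, monocyte and plasmacytoid DC transcripts were more abundant. The 7 plasmacytoid DC markers summed to 486, 398, 791 and 805 CPM, led by Bst2, also an interferon-stimulated gene, at 352, 313, 617 and 617 CPM, with Klk1 at 0. They were higher in both P70 mice, and their part in the differences with age was not tested. The 12 macrophage and microglia markers summed to 635, 773, 685 and 201 CPM, and C1qb reached at most 39.7 CPM, where the gate on complement genes held it low. The 8 monocyte markers summed to 2392, 2199, 4511 and 2858 CPM, led by Plac8 at 968, 712, 3135 and 2040 CPM. Their sum was higher in both P70 mice, but the median log2 fold change of the 5 tested was 0.20. Ly6c2, the defining antigen of inflammatory monocytes, was at 64.5, 6.95, 272 and 148 CPM. In mouse 6, 29 of 220 members carried a UMI of a lymphocyte or neutrophil marker, against 0, 1 and 0 members in mouse 4, mouse 5 and mouse 7. The part of monocyte transcripts in the differences with age was not tested beyond leaving out the members with a Ly6c2 UMI. That count is given beside the count of changed genes, and cells with other monocyte markers stayed in it.

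**Figure D1:**
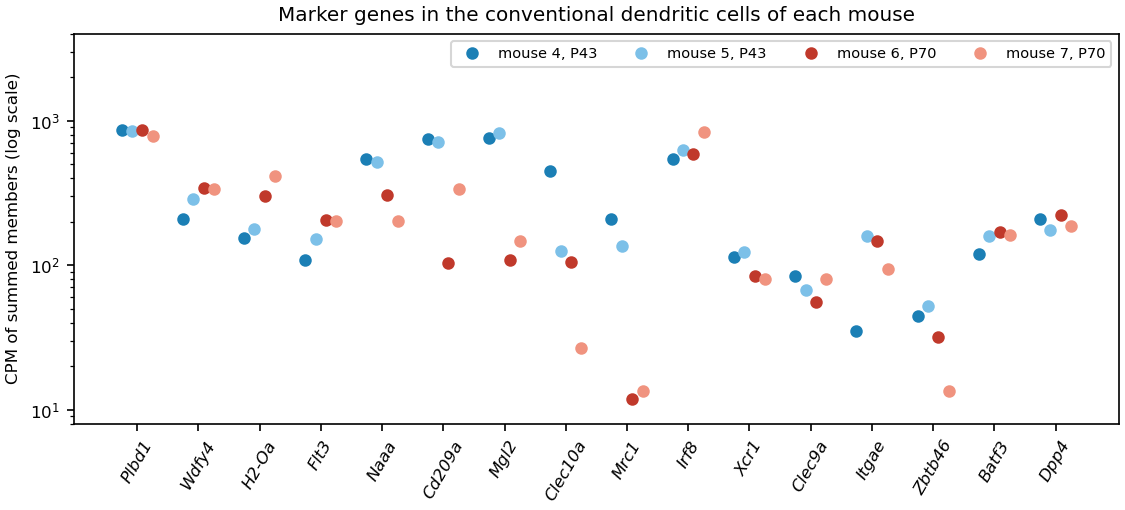
CPM (log scale) of 16 marker genes in the summed members of each mouse, 1 point per mouse, blue for P43 and red for P70. Plbd1 lies between 778 and 868 CPM in every mouse, while Cd209a, Mgl2 and Mrc1 lie lower in both P70 mice.

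The members held both conventional DC types. With every UMI used, 110 members carried Cd209a and neither Xcr1 nor Clec9a, 78 carried Xcr1 or Clec9a and no Cd209a, 10 carried both, and 137 none of the 3 genes. The first set is called the Cd209a side and the second the Xcr1 side. Xcr1 encodes the receptor for the chemokine Xcl1 and Clec9a a lectin that binds actin of dead cells. The promoters of these 2 genes and of 3 lectin genes that were lower at P70 are shown so that the sequence around each start site can be read beside its values. Each is 300 bases, 250 before the start site and 50 from it on, from RefSeq on GRCm38.p6, 5′ to 3′ on the gene's own strand. Capitals mark 2 motifs searched on both strands, the Ets-IRF composite (GGAA, any 2 bases, then GAAA), bound by PU.1 with Irf4 or Irf8, and the Ets core GGAAGT.
Cd209a, chr8:3748935-3749234, minus strand: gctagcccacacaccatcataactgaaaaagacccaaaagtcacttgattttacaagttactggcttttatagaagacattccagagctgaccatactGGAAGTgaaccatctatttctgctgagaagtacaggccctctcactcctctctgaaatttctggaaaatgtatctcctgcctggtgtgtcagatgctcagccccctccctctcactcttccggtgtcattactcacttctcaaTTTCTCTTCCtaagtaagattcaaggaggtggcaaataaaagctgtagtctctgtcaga
Mgl2, chr11:70130107-70130406, plus strand: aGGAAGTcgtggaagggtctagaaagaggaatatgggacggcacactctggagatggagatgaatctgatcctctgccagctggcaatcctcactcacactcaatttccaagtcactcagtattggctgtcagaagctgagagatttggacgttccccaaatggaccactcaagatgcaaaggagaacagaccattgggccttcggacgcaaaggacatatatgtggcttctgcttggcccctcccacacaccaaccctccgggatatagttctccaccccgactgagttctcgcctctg
Mrc1, chr2:14229164-14229463, plus strand: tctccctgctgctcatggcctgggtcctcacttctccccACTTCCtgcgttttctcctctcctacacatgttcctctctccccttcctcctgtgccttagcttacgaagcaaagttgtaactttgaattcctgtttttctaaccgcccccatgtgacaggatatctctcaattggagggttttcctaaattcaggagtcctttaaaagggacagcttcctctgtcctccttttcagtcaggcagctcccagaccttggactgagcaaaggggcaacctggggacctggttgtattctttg
Xcr1, chr9:123861980-123862279, minus strand: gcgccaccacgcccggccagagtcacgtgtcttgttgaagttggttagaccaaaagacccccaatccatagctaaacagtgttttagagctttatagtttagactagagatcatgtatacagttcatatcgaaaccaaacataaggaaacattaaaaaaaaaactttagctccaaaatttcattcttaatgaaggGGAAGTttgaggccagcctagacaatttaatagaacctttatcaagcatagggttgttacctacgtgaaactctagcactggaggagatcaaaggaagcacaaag
Clec9a, chr6:129408612-129408911, plus strand: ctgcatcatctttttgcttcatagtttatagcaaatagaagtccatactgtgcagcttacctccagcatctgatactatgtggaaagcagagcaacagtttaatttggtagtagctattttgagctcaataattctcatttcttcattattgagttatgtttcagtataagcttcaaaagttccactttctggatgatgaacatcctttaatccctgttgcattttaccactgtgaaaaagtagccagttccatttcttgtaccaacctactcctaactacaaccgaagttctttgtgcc

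The composite letters stood in the Cd209a promoter alone of these 5, on the opposite strand, with the first base printed 9 bases before the start site. They occur in 2.72% of 32851 promoters of the same length. The Ets core was found in the promoters of Cd209a, Mgl2, Mrc1 and Xcr1, and it occurs in 23.8% of all promoters. Such a match is a description of letters, and no binding was measured.

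Several genes outside the choice of sides followed the known types. Irf8, a transcription factor that directs cDC1 development, stood at 1818, 1758, 1517 and 1709.6 CPM on the Xcr1 side and at 0, 66.2, 196 and 283 CPM on the Cd209a side, so the sides did not overlap across the 4 mice. Id2, a repressor of E proteins, ranged from 912 to 1230.4 CPM on the Xcr1 side and from 217 to 321 CPM on the Cd209a side. Tlr3, a sensor of double-stranded RNA, was at 220.4, 164, 145 and 114 CPM on the Xcr1 side against 0, 8.63, 24.2 and 70.8 CPM. The mouse 7 values of Tlr3 came from 2 against 1 UMIs and show no difference. The lesser known cDC1 markers Gcsam and Snx22 were at 57.0 CPM or more on the Xcr1 side of each mouse. On the Cd209a side both had UMIs in mouse 6 alone, at 6.04 CPM. In mouse 7 that side held 14122 UMIs, too few for a count of 0 to show a difference in these 2 genes.

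Other genes were higher on the Cd209a side. Clec10a, another galactose-binding lectin, was at 632, 190, 302 and 70.8 CPM there and at 18.4, 0, 6.58 and 0 CPM on the Xcr1 side. The inhibitory receptor Sirpa was at 221, 77.7, 130 and 142 CPM against 0, 11.3, 19.7 and 0, and the integrin Itgam (CD11b) at 331, 207, 163 and 142 CPM against 0, 11.3, 17.5 and 0. Zeb2, a repressor needed for cDC2, and the macrophage growth factor receptor Csf1r differed the same way in all 4 mice. The monocyte marker Plac8 went the other way, at 371, 662, 2581 and 637 CPM on the Cd209a side and 1818, 972, 3095 and 1881 CPM on the Xcr1 side. The listed cDC2 marker Klf4 was at 612, 593, 257 and 212 CPM on the Cd209a side, against 331, 249, 61.4 and 912 CPM. Klf4 was thus higher on the Xcr1 side in mouse 7, from 16 against 3 UMIs. Irf4 was at 60.2, 54.7, 6.04 and 0 CPM on the Cd209a side, against 0, 0, 2.19 and 0. These differences carry no test because the cells had been chosen by their transcripts, and mouse 7 had only 5 cells on each side. In that mouse Clec10a, Sirpa, Itgam and Csf1r had 1 or 2 UMIs on the Cd209a side and 0 on the Xcr1 side. Such counts show no difference. Of the MHC class II genes, Cd74 was higher on the Cd209a side, at 24115, 25631, 20696 and 29812 CPM against 17354, 18030.3, 18671 and 18635. The sides overlapped for H2-Ab1, at 11395, 12309, 10292 and 14800 CPM on the Cd209a side and at 8851, 9411, 10871 and 10315 CPM on the Xcr1 side.

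Members with none of the 3 genes numbered 8, 4, 113 and 12. In mouse 6 they were 113 of 220, with a median of 7102 UMIs, close to the 7203 of all its members. Their sum in mouse 6 held 395 CPM of Ly6c2, 496 CPM of Fabp5 (a lipid chaperone) and 3277 CPM of Il1b, against 112, 69.4 and 2282 CPM on the Cd209a side and 173, 4.38 and 1335 CPM on the Xcr1 side of the same mouse. Irf8 in them was at 206 CPM, close to the Cd209a side. These cells were given no side, and shares were read after each member had been thinned to 2000 UMIs.

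**Figure D2:**
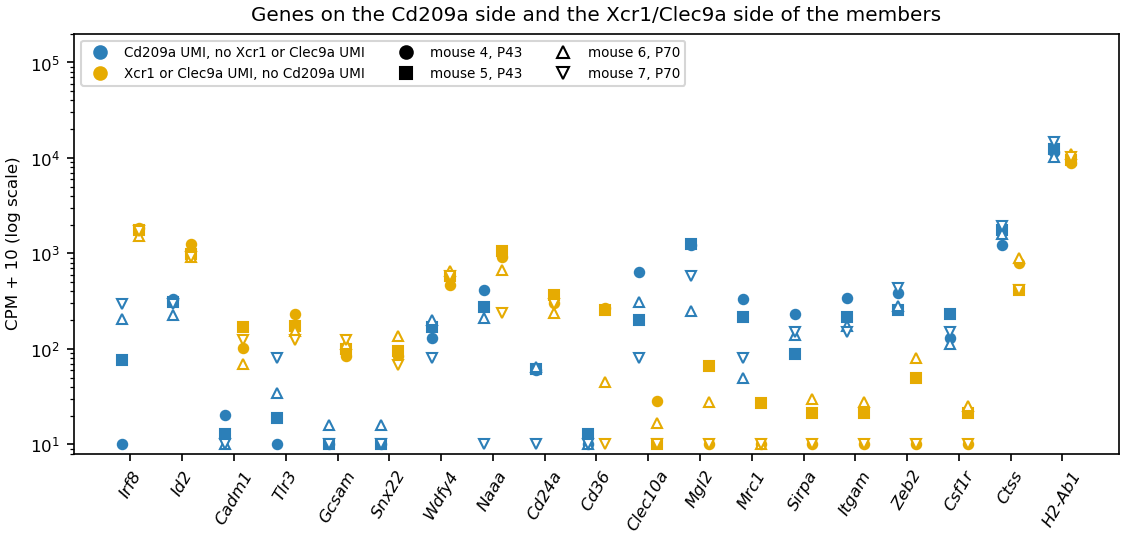
CPM plus 10 (log scale) of 19 genes in members with a Cd209a UMI only (blue) and in members with an Xcr1 or Clec9a UMI only (yellow), 1 symbol per mouse. Irf8, Id2 and Tlr3 are higher on the Xcr1 side of every mouse, Clec10a, Sirpa and Itgam on the Cd209a side. In mouse 7 Tlr3, Clec10a, Sirpa and Itgam rest on at most 2 UMIs per side, which show no difference.

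At 2000 UMIs per cell, which left 24, 55, 219 and 20 members, Cd209a was seen in 50%, 52.7%, 15.1% and 35.0% of them. The exact binomial 95% intervals ran from 29.1 to 70.9%, 38.8 to 66.3%, 10.6 to 20.5% and 15.4 to 59.2%, and cover counting error only. The means were 51.4 ± 1.93% at P43 and 25 ± 14.1% at P70 (SD, n = 2 each). Cd209a is a rule gene, so its share among members is partly set by the selection and is given without a test. Without thinning the shares were 54.5%, 68.4%, 25% and 32.0%. In endothelial cells, which should lack the gene, the share with Cd209a without thinning was at most 0.377%. These cells were selected by endothelial genes, and cells that met the member rule, which counts Cd209a, were left out. Their share with Cd209a is thus also partly set by the selection. They were shallower than the members, at median depths of 1693, 3645, 2474.5 and 1103.5 UMIs.

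Mgl2, also a rule gene and also given without a test, was seen in 45.8%, 43.6%, 10.5% and 20% of the thinned members (44.7 ± 1.55% against 15.3 ± 6.72%). Ccr2, the receptor that brings monocytes and their kin out of the marrow, did not enter the rule and was seen in 66.7%, 47.3%, 31.1% and 10.0%. The difference of 57.0 ± 13.7% against 20.5 ± 14.9% gave p = 0.333 in an exact two-sided permutation test, the smallest that 2 against 2 mice allow, so no share could pass a threshold of 0.05. In macrophages of the same tumors Mgl2 was seen in 28.6%, 45%, 0.213% and 1.52% of thinned cells and Ccr2 in 66.7%, 70.0%, 31.5% and 34.8%. Shares with Xcr1 (4.17%, 14.5%, 11% and 15%) and with Clec9a (8.33%, 12.7%, 6.85% and 20%) overlapped between ages. At least 2 of 8 cell cycle genes were seen in 2, 2, 6 and 2 thinned members, 8.33%, 3.64%, 2.74% and 10.0%, with overlapping ages.

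**Figure D3:**
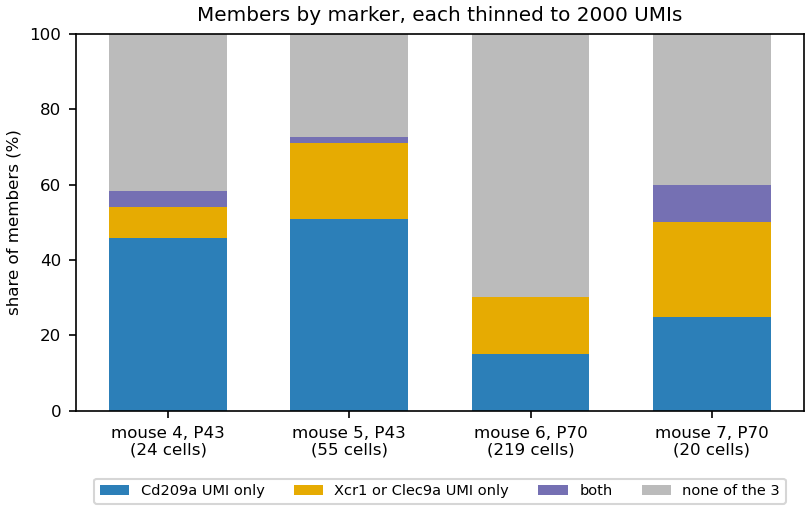
Share of members (%) by the marker they carry after thinning to 2000 UMIs, 1 bar per mouse with the number of cells below it. Members with Cd209a alone make up 45.8% and 50.9% of the bars at P43 and 15.1% and 25% at P70.

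Antigen presentation genes were abundant at both ages. The 11 MHC class II genes summed to 46936, 52785, 50098 and 57805 CPM, led by the invariant chain Cd74 at 21054, 23504, 20234 and 21992 CPM. H2-Ab1 was at 10068, 11318, 11378 and 11553 CPM. Ciita, the master regulator of these genes, was at 342, 323, 296 and 148 CPM. The class II sums of the ages overlapped. Cd74 and H2-Aa are conditions of the rule, so their presence is no finding, but the rule did not use age. In macrophages, H2-Ab1 was at 6955, 10877, 9088 and 6999 CPM and in endothelial cells at most at 98.5 CPM.

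Whether gene levels in the members differed with age was tested on UMIs summed per mouse with edgeR's quasi-likelihood test, P70 against P43, with Benjamini-Hochberg adjustment over 4987 genes. At an adjusted p under 0.05, 107 genes changed, 2.15% of those tested: 50 were higher at P70 (1%) and 57 lower (1.14%). At an unadjusted p under 0.05 there were 634. In all 107 the CPM of the ages did not overlap, against 2052 of all 4987 genes tested. The 107 were chosen by their p, so this adds no support to the calls. The median log2 fold change of all genes was -0.01. The samples are 4 animals, so the test rests on the spread between 2 mice per age. Without mouse 7 it called 362 genes, 106 of them among the 107, and without mouse 6 it called 101, with 47 shared. With 1 mouse left in an age, the spread comes from the other age alone and the lone mouse is assumed to vary like it. DESeq2 called 36 genes, all of them among the 107, and 18 of the 37 genes named by the rule of size and lists. Cd209a, Mgl2 and Ccr7, which the selection used, are among the 37. The members mixed both sides, in shares that differed between the mice. Among members with a Cd209a or Mgl2 UMI 76 genes were called, 54 of them shared, and among members with no Ly6c2 UMI 141, with 100 shared.

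**Figure D4:**
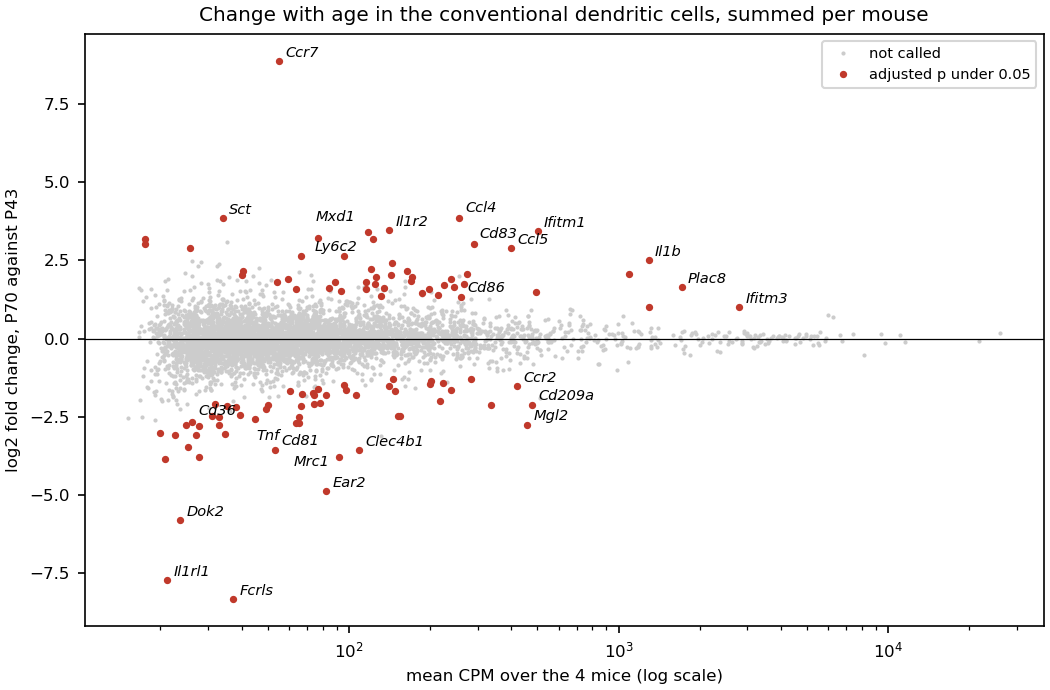
log2 fold change of each of 4987 genes between P70 and P43 against its mean CPM over the 4 mice (log scale), red for the 107 genes with an adjusted p under 0.05. Il1b, Ccl4, Ccl5 and Cd83 lie among the rises, and Mgl2, Mrc1, Clec4b1 and Tnf among the falls. The values for Ccr7, Fcrls and Il1rl1 depend on the prior count, since these genes were at 0 in both mice of an age.

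Among secreted factors, Il1b rose, which encodes the inflammatory cytokine interleukin 1 beta. It stood at 303, 460, 2498 and 1919 CPM, so both P70 mice lay far above both P43 mice (log2 fold change 2.51 ± 0.27, SE, edgeR adjusted p = 0.00119). Ccl4, a chemokine that attracts T cells and monocytes, was at 19.8, 41.7, 586 and 376 CPM (3.85 ± 0.38, adjusted p = 0.00119). Ccl5, a chemokine that attracts T cells, was at 14.9, 148, 752 and 684 CPM (2.91 ± 0.54, adjusted p = 0.0201), and was not called by DESeq2 (adjusted p = 0.884), with at least 4 rule genes (0.0502) or in members with a Cd209a or Mgl2 UMI (0.0527). Tnf, the other cytokine tested that changed, fell, with 149, 92.1, 19.2 and 0 CPM (-2.69 ± 0.45, adjusted p = 0.0127, and 0.135 with DESeq2). Ccl17, Cxcl9 and Cxcl10, ligands of Ccr4 and Cxcr3 on T cells, did not pass the test and varied between mice of an age, with Cxcl9 at 724, 17.4, 420 and 174 CPM and Cxcl10 at 223, 41.7, 745 and 13.4 CPM.

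Of 10 chemokine genes tested 2 rose and 0 fell, with a median log2 fold change of -0.54, and of 3 cytokine genes 1 rose and 1 fell. Il12b, the subunit of interleukin 12 that directs T helper 1 responses, had UMIs in mouse 6 alone, at 48.9 CPM, and was not tested. Il10, Il12a and Ifnb1 were at 0 in all 4 mice. Il6 reached 4.33 CPM in mouse 6 and was at 0 elsewhere.

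Of 11 costimulation and checkpoint genes tested, Cd83 and Cd86 rose and 0 fell, with a median of 1.05 and a positive log2 fold change in 7. Cd83, a stabilizer of MHC class II and Cd86 at the surface, was at 59.5, 67.8, 576 and 456 CPM (3.02 ± 0.30, edgeR adjusted p = 0.00119). Cd86, a ligand of Cd28 and Ctla4 on T cells, was at 169, 125, 334 and 416 CPM (1.34 ± 0.29, adjusted p = 0.0402), and its adjusted p was 0.165 without mouse 5, 0.204 with DESeq2 and 0.0873 with at least 4 rule genes. Cd40, the receptor through which T cells license DC, overlapped between ages at 59.5, 22.6, 89.7 and 53.7 CPM. The checkpoint ligand Cd274 (PD-L1) was at 29.8, 12.2, 71.1 and 0 CPM.

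Ccr7, the receptor that guides DC to lymph nodes, is a gate gene of which a member could carry UMIs when the other 3 migratory genes were at 0. It was at 0, 0, 86.6 and 134 CPM, with 140 UMIs in mouse 6 and 10 in mouse 7. The gate bears on which cells with Ccr7 could be members, so it is given without a test or a fold, although it is one of the 107 genes called. In Ccr7 DC, the cells with at least 2 of the 4 migratory genes, it was at 1507, 1192, 3138 and 3129 CPM. One migratory gene was carried by 0, 3, 43 and 3 members, and Cacnb3 by none.

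The 13 receptor and adhesion genes tested included the gate gene Ccr7, whose call is not counted here. Of the others, Cxcr4 rose and Ccr2 fell. Cxcr4, the receptor for Cxcl12, was at 54.6, 36.5, 138.5 and 107 CPM (1.61 ± 0.34, edgeR adjusted p = 0.0369), and the call was lost without mouse 5 (adjusted p = 0.32), without mouse 6 (0.421), with DESeq2 (1), with at least 4 rule genes (0.216) and in members with a Cd209a or Mgl2 UMI (0.218). Ccr2 was at 685, 596, 263 and 134 CPM (-1.52 ± 0.30, adjusted p = 0.0243). The integrin Itgae (CD103), a cDC1 and mucosal DC marker, was at 34.7, 158, 148 and 93.9 CPM, with overlapping ages. Of 9 growth factor receptor genes Csf2rb alone passed, the shared beta chain of the GM-CSF receptor, at 89.3, 104, 261 and 295 CPM (1.46 ± 0.30, adjusted p = 0.0303). Its adjusted p was 0.0743 without mouse 4, 0.226 with DESeq2, 0.124 in members with a Cd209a or Mgl2 UMI and 0.0548 in members without Xcr1 or Clec9a UMIs. Flt3, a rule gene and given without a test, was at 109, 151, 207 and 201 CPM.

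The lectins Mrc1 and Clec4b1 were called as lower at P70. The lectins Mgl2 and Cd209a are rule genes, so their levels are partly set by the selection and are given as a description. Mgl2 was at 754, 822, 109 and 148 CPM (log2 fold change -2.74 ± 0.29), so both P70 mice lay far below both P43 mice. Mrc1, the mannose receptor CD206, was at 208, 136, 11.8 and 13.4 CPM (-3.79 ± 0.41, edgeR adjusted p = 0.00119). Cd209a was at 749, 717, 103 and 335 CPM (-2.11 ± 0.45), and it was -1.12 without mouse 6, so the size of this difference depended on that mouse. Clec4b1, a lectin of monocyte-derived DC known as DCAR, was at 288, 106, 14.2 and 26.8 CPM (-3.57 ± 0.54, adjusted p = 0.00924). The ages did not overlap for Clec10a either, but it did not pass, at 447, 125, 106 and 26.8 CPM. The 16 pattern recognition genes tested included the rule genes Cd209a and Mgl2, whose calls are not counted here. Of the others, Mrc1 fell and Ifih1 rose. Ifih1, the sensor of viral RNA Mda5, was at 74.4, 52.1, 226 and 148 CPM (1.74 ± 0.34, edgeR adjusted p = 0.0241). Its call was lost with DESeq2 (adjusted p = 0.356), with at least 4 rule genes (0.108) and without Ly6c2 UMIs (0.0509). It was also lost without mouse 5 (log2 fold change 1.48) and without mouse 6 (1.29).

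The genes with the largest rises by size, beside the gate gene Ccr7, Ccl4 and Cd83, were Sct, Il1r2, Ifitm1, Mxd1, Mpp7, Ly6c2, Galnt6, Leng8 and Vegfa. Il1r2, a decoy receptor that takes up interleukin 1, was at 9.92, 24.3, 168 and 362 CPM (3.48 ± 0.51, edgeR adjusted p = 0.00723). Ifitm1, of the interferon-induced transmembrane family, was at 9.92, 132, 843 and 1020 CPM (3.42 ± 0.57, adjusted p = 0.0121, and 0.628 with DESeq2), and its relatives Ifitm2, Ifitm3 and Ifitm6 also rose. The log2 fold change of Ifitm1 was 2.77 without mouse 4 and 6.55 without mouse 5, so its size depended on the P43 mouse kept. Mxd1, a partner of Max that opposes Myc, was at 24.8, 19.1, 251 and 174 CPM (3.42 ± 0.38, adjusted p = 0.00119). Sct, which encodes the hormone secretin, was at 14.9, 1.74, 92.8 and 26.8 CPM, from 2 UMIs in mouse 7. Its adjusted p was 0.0187, 0.0648 without mouse 5 and 0.585 with DESeq2. Galnt6, Leng8 and Vegfa were likewise read from 2, 2 and 4 UMIs in mouse 7, and DESeq2 called none of them (adjusted p = 1, 1 and 0.839). With at least 4 rule genes their edgeR adjusted p was 0.0653, 0.071 and 0.0967. Galnt6 was also lost without mouse 4 (0.0531) and Vegfa without mouse 5 (0.605).

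Among the largest falls, 2 genes were at 0 in both P70 mice. Fcrls, an Fc receptor-like gene best known from microglia, was at 109 and 40.0 CPM at P43 (edgeR adjusted p = 0.00723, and 0.102 without mouse 6). Against 3 UMIs over both P70 mice (1.77 CPM) it was at least 32.7-fold lower, a bound that rests on the depth of mouse 6. Il1rl1, the receptor for interleukin 33 (ST2), was at 44.7 and 40.0 CPM at P43, at least 23.2-fold lower on the same terms (adjusted p = 0.00569), and could not be tested without mouse 6. In mouse 7 alone 3 UMIs are 40.3 CPM, which shows no fall of either gene below its lower P43 value. Dok2, Ear2, Tspoap1, Mras, Cd81, Zfp296, Fbxl18 and Raph1 followed. Ear2, an eosinophil-associated ribonuclease that monocytes also make, was at 213, 99.0, 4.33 and 13.4 CPM (-4.86 ± 0.57, adjusted p = 0.00201). Its log2 fold change was -3.39 without mouse 6. Cd81, a tetraspanin, was at 114, 78.2, 7.42 and 13.4 CPM, with an adjusted p of 0.00489 and of 0.169 without mouse 6. Without that mouse the calls of Dok2 (adjusted p = 0.36), Tspoap1 (0.364), Mras (0.242), Fbxl18 (0.326) and Raph1 (0.312) were lost too. Each of these had 0 UMIs in mouse 7, so the fitted log2 fold changes without mouse 6, between -6.86 and -6.61, depend on the prior count. DESeq2 did not call Tspoap1 (adjusted p = 0.585), Mras (0.237), Zfp296 (0.884), Fbxl18 (0.923) or Raph1 (0.622). Mras was also lost without mouse 5 (0.793), and Raph1 without mouse 4 (0.239), without mouse 5 (0.728) and with at least 4 rule genes (0.071). Cd36, a scavenger receptor for lipids, fell among the 6 iron and lipid genes tested, at 74.4, 78.2, 13 and 13.4 CPM, and 1 UMI stood behind the value of mouse 7. It was not called by DESeq2 (adjusted p = 0.554), without mouse 5 (0.615) or without mouse 6 (0.256).

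MHC class I and transcription factor genes gave no call. Of 14 class I and cross-presentation genes and 17 DC transcription factors, 0 passed the edgeR test, with median log2 fold changes of 0.22 and 0.23. At an unadjusted p under 0.05 there were 1 and 4 of them, and DESeq2 called 0. The 11 MHC class II genes had a median of 0.11, given without a test because the rule used H2-Aa, Cd74 and H2-Oa among them. A p that misses the threshold does not show equal levels with 2 mice per age. Irf8 was at 541, 631, 584 and 832 CPM, Batf3, its partner in cDC1, at 119, 160, 168 and 161 CPM, and Spi1 (PU.1), a factor of all myeloid cells, at 447, 452, 508 and 564 CPM. Irf4, a factor of cDC2, was at 34.7, 34.7, 8.66 and 13.4 CPM, from 42 UMIs in all. Of the 8 cDC1 markers 0 passed with edgeR or DESeq2, with 1 at an unadjusted p under 0.05, and of 7 cDC2 markers tested Cd209a and Mgl2 alone were called, with a median of 0.02 and -1.58. Both are rule genes, so nothing is read from this about the types. None of 84 ribosomal protein genes passed by either tool, with 0 at an unadjusted p under 0.05.

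Interferon-stimulated genes gave 1 call. Of 21 tested, 20 had a positive log2 fold change, with a median of 0.94, and 11 had an unadjusted p under 0.05, but Ifitm3 alone passed, at 1891, 1847, 4345 and 3100 CPM (1.01 ± 0.22, edgeR adjusted p = 0.0402, and 0.261 without mouse 6). Isg15, a ubiquitin-like modifier, was at 829, 175, 1195 and 483 CPM, and Rsad2, which encodes the antiviral enzyme viperin, at 169, 15.6, 327 and 134 CPM. The mice of an age thus lay far apart. Ifitm1, Ifitm2, Ifitm6 and Ifih1, which also rose, are not in this list. Ages did not overlap for 3 of the 21 genes, against 2052 of all 4987 genes tested. No immediate early or heat shock gene of 12 and no cell cycle gene of 5 passed with edgeR or DESeq2, with 3 and 1 at an unadjusted p under 0.05.

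Monocyte genes moved in both directions. Plac8, a small protein of DC precursors and monocytes, was at 968, 712, 3135 and 2040 CPM (1.66 ± 0.25, edgeR adjusted p = 0.00924), and Ly6c2 rose (3.19 ± 0.63, adjusted p = 0.0244) while Ccr2 fell. Ly6c2 was not called by DESeq2 (adjusted p = 1) or in members with a Cd209a or Mgl2 UMI (0.176), and Ccr2 not with at least 4 rule genes (0.0502). The log2 fold change of Ly6c2 was 4.99 without mouse 4 and 1.89 without mouse 5, so its size depended on the P43 mouse kept. Of 5 monocyte genes tested 2 rose and 1 fell, and S100a4 and Fn1 did not pass. Plac8 was not confined to the members without a side, since the Xcr1 side held 1818, 972, 3095 and 1881 CPM. In members with no Ly6c2 UMI, Plac8 and Il1b kept their call.

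The change with age was set beside that of macrophages (at least 2 of the 3 complement genes, with 49, 45, 539 and 104 cells) in a single edgeR model of the 8 sums, with the mouse as a block. Of 5268 genes, 4 differed in their change (0.0759%). Of the member genes called between the ages, 104 could be tested, and 0 of them were among the 4. At an unadjusted p under 0.05 there were 23 of the 104, and DESeq2 called 0. The rises and falls above are therefore not shown to be particular to the conventional DC. Macrophages had 288, 662, 3290 and 2379 CPM of Il1b, 144, 96.2, 859 and 249 CPM of Ccl4, 480, 507, 12.6 and 41.5 CPM of Mrc1, and 754, 1245, 282 and 294 CPM of Ccr2.

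The 4 genes that differed from macrophages were Psap, Ftl1, Sgk1 and Ccl17. Psap, the precursor of the lysosomal saposins, was at 2193, 2191, 1634 and 1369 CPM in members and at 1850, 3348, 4623 and 4288 CPM in macrophages (difference of log2 fold changes -1.47 ± 0.24, edgeR adjusted p = 0.0462). Ftl1, the ferritin light chain, was at 2054, 2222, 1592 and 2160 CPM in members and at 4105, 4222, 5329 and 8254 CPM in macrophages (-0.97 ± 0.17, adjusted p = 0.0462). Sgk1, a kinase induced by glucocorticoids, was at 164, 93.8, 41.4 and 0 CPM against 103, 62.2, 332 and 367 CPM (-3.99 ± 0.55, adjusted p = 0.0152). The log2 fold changes of Sgk1, Psap and Ftl1 were -1.73, -0.53 and -0.20 in members and 2.32, 0.93 and 0.89 in macrophages. Ccl17, a Ccr4 ligand of cDC2, was high in mouse 5 alone, at 9.92, 467, 34.0 and 13.4 CPM in members and 0, 277, 0.63 and 0 CPM in macrophages, and it was not called without mouse 6 and was not among the genes tested without mouse 5. Psap and Ftl1 were not called without mouse 7. DESeq2 called Sgk1 alone of the 4, and with no replicate block edgeR called 0 genes, with 156 at an unadjusted p under 0.05.

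Against Ccr7 DC, of which there were 9, 5, 104 and 5 cells, 6 of 3076 genes differed (0.195%), all with the higher log2 fold change in the members when all mice were used: Cxcl10, Ccl4, Ccr7, Cxcl9, Tnfaip2 and Gbp2. Ccr7 is a gate gene of both classes, so its place among the 6 is set in part by the selection and no difference is read from it. The difference for Gbp2 turned to -0.999 without mouse 6. In the Ccr7 DC of mouse 7, Cxcl10 had 0 UMIs and Cxcl9, Tnfaip2 and Gbp2 had 1 each. Ccl4 was at 79.3, 609, 400 and 180 CPM in Ccr7 DC (difference 4.15 ± 0.81, edgeR adjusted p = 0.000491). Without mouse 5, without mouse 6 and without mouse 7 edgeR made 1, 1 and 0 calls, DESeq2 made 0, and with no replicate block 0, with 137 genes at an unadjusted p under 0.05.

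**Figure D5:**
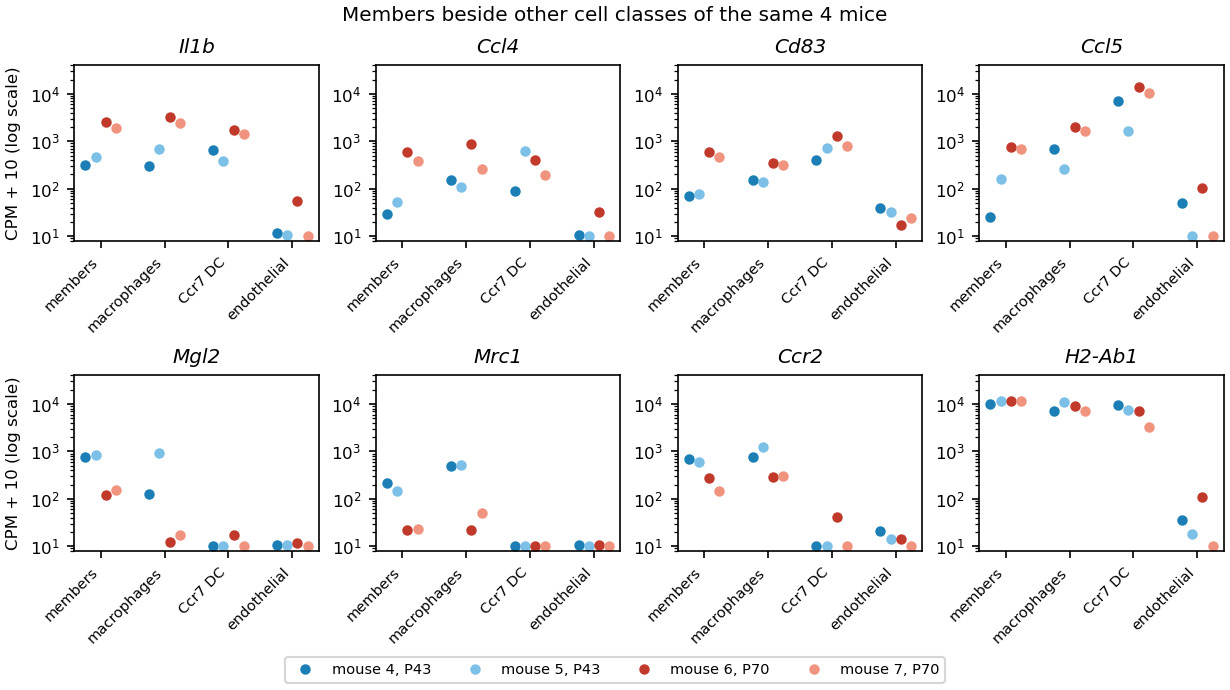
CPM plus 10 (log scale) of 8 genes in the members, macrophages, Ccr7 DC and endothelial cells of each mouse, 1 point per mouse. Il1b and Ccl4 are higher and Mgl2, Mrc1 and Ccr2 lower at P70 in the members and in macrophages, while H2-Ab1 in members lies between 10068 and 11553 CPM.

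Genes were ranked by their lowest ratio, over the mice, of members to another class, and some of the leading ones follow as a description. Klrd1 (CD94), a lectin of NK cells and of some DC, was at 213, 182, 169 and 362 CPM in members and at 6.85, 8.49, 2.20 and 0 CPM in macrophages. Kit, the stem cell factor receptor, was at 39.7, 64.3, 129 and 134 CPM against 0, 0, 6.92 and 3.46. Against Ccr7 DC the integrin subunit Itgb7 led the list, at 298, 181, 158 and 93.9 CPM against 0, 0, 11 and 0, and Gm2a, a lysosomal lipid transfer protein, was at 963, 1187, 1091 and 1489 CPM against 0, 132, 178 and 180.5. Against plasmacytoid DC (6, 9, 78 and 2 cells) Tnip3, an inhibitor of NF-κB signalling, came first, at 144, 137, 50.1 and 53.7 CPM against 0 UMIs in all 4 mice. A count of 0 in so few Ccr7 DC or plasmacytoid DC sets no low limit, and in mouse 7 neither Itgb7 nor Tnip3 is shown to differ. These lists describe cells chosen by their transcripts and carry no test.

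The members were 0.994%, 3.92%, 8.05% and 0.721% of kept cells (exact binomial 95% intervals 0.685 to 1.39%, 2.98 to 5.05%, 7.06 to 9.14% and 0.467 to 1.06%). The means were 2.46 ± 2.07% at P43 and 4.39 ± 5.18% at P70 (SD, n = 2 each, exact permutation p = 1), so the mice of an age differed more than the ages. Most kept cells of mouse 7 carried the tumor transgenes, with only 981 of 3469 under 5 UMIs of them. Among cells with a UMI of the leukocyte gene Ptprc, the members were 13.9%, 19.0%, 13.3% and 11.7%. Set against macrophages, the members were 40.2%, 55.9%, 29.0% and 19.4% of both together, 48.1 ± 11.1% at P43 and 24.2 ± 6.79% at P70 (exact permutation p = 0.333, the smallest possible). After thinning every cell to 1000 UMIs, the difference in the share of kept cells was -0.16 points.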

How the data were processed

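Single-cell RNA libraries (10x 3′ chemistry) of 4 tumors were deposited as matrices of UMI counts per gene and barcode, made by the authors with Cell Ranger 6.0.2 against mm10 with the human MYCN and luciferase sequences added. A barcode was kept as a cell if it had at least 200 genes, no more than 40000 UMIs and a mitochondrial share under 25%. No doublet caller was run, and the UMI limit was the only step against doublets. Members, macrophages (at least 2 complement genes), Ccr7 DC and endothelial cells were selected by their transcripts. The members and gene lists were chosen with earlier results of these data known.

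Counts were summed per mouse and class and tested with edgeR 4.0.16 (TMM, low counts filtered, quasi-likelihood test, R 4.3.3), with DESeq2 1.42.0 as an alternative. Shares carry exact binomial 95% intervals and exact permutation tests (scipy 1.17.1). Classes of a mouse share its library, so the mouse was a block: deviations from the age mean correlated at 0.166 and 0.426 between members and macrophages, and at 0.095 and 0.236 between members and Ccr7 DC (across genes, P43 and P70). Named are rule genes, list genes and the 12 largest called rises and 12 largest called falls whose ages did not overlap. Promoters came from RefSeq and gene positions from GENCODE on the same build. The values of some single list genes are not reported here.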

Additional observations from a re-analysis of the deposited data

Results flagged for a closer look

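The change between P43 and P70 differed between the conventional DC and macrophages of the same mice for 4 genes, by edgeR's test of the difference itself. The difference of log2 fold changes, members minus macrophages, was -3.99 for Sgk1 (adjusted p = 0.0152), -1.47 for Psap, -0.97 for Ftl1 and 4.58 for Ccl17 (adjusted p = 0.0462 each). Sgk1 had 0 UMIs in the members of mouse 7 and was at 41.4 CPM in those of mouse 6, against 164 and 93.8 CPM at P43. Ccl17 rested on mouse 5, where both classes were highest. DESeq2 called Sgk1 alone of the 4, Psap and Ftl1 were not called without mouse 7, and Ccl17 was not called without mouse 6.

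Against Ccr7 DC, 6 genes differed by the same edgeR test. The difference, members minus Ccr7 DC, was 3.90 for Cxcl10 and 4.15 for Ccl4 (adjusted p = 0.000491 each), 3.33 for Cxcl9 (0.00153), 3.28 for Tnfaip2 (0.0376) and 3.31 for Gbp2 (0.0466). For Ccr7 the difference was 6.97, but it is a gate gene of both classes, so the value follows in part from the selection and is given without a p. Gbp2 turned to -0.999 without mouse 6, and none of the 6 was called by DESeq2. In mouse 7 the Ccr7 DC held 0 UMIs of Cxcl10 and 1 each of Cxcl9, Tnfaip2 and Gbp2.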

How the results depend on the processing

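The count of 107 genes changed with age became 268 without the filter on low counts, 36 with DESeq2, 65 in members with at least 4 rule genes and 192 in members without Xcr1 or Clec9a UMIs (chosen after seeing the data), and leaving out 1 mouse gave 101 to 362. Against macrophages the 4 calls became 12 with RLE normalization, 39 without the filter, 1 with DESeq2 and 7 to 66 with 1 mouse left out, and with no replicate block 0. Against Ccr7 DC the 6 calls became 0 without the filter, 0 with DESeq2, 0 to 6 with 1 mouse left out, and with no replicate block 0. Without P70 replicate 1 the difference for Gbp2 turned to -0.999, and with the other mice left out in turn it was up to 3.39. The other shifts were in shares that no test could call. The difference in the share of members among kept cells, 1.93 points, was -3.99 among cells with a Ptprc UMI, -0.16 after thinning to 1000 UMIs, and -1.74 to 5.60 with 1 mouse left out. For Xcr1, 3.62 points became -2.39 without thinning and ran from -1.57 to 8.81 with 1 mouse left out. For Clec9a, 2.89 became -5.05 at 1000 UMIs and ran from -3.68 to 9.47. For cycling members, 0.39 became -0.86 at 1000 UMIs, -4.40 without thinning and -0.13 with at least 4 rule genes, and ran from -3.25 to 4.01, with -1.96 without P43 replicate 2. The cause of these changes was not tested. Of the 37 genes named by the test, DESeq2 did not call 19, 13 were called under every alternative that tested them, and none changed direction. The 37 include the rule genes Cd209a and Mgl2 and the gate gene Ccr7. Mgl2 and Ccr7 are also among the 13, and nothing is read from their calls because the selection used them. Depth limits mouse 7 most, where 3 UMIs are 40.3 CPM.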
